A study of Homo sapiens with 8 samples.

Results

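Counts of 10 genes better known from blood cells than from carcinoma, LCP1, CD74, CD83, PTPN7, LAPTM5, LCK, CTSS, CD68, LTB and CYFIP2, were followed through 8 RNA-seq libraries of T24 xenograft tumours. They are 10 of the 58302 genes in the count table and were found by symbol. They were chosen by their measured counts in these tumours, and LCP1, CD83 and PTPN7 also by the calls of an earlier DESeq2 test of the same libraries. Their levels and their differences between the groups are therefore given as descriptions. T24 is a human bladder cancer line, grown here as a tumour in mice. Of the libraries, 4 come from tumours of T24 cells made to overexpress DDR1, a receptor tyrosine kinase that binds collagen, and 4 from control T24 tumours. The labels give neither the host strain, nor the construct, nor what the control cells carried, so it is not known which immune cells the hosts still had. Nothing in the labels says that libraries of a group came from separate mice, so a p-value here reflects the variation among libraries alone, some of which could be technical. The titles of DDR1 2, 3 and 4 share the prefix R71, and those of controls 3 and 4 share R69_2. Titles also carry an M number of unstated meaning (M1, M1, M2 and M4 in DDR1 1 to 4, M2, M2, M2 and M3 in controls 1 to 4). Every DDR1 title names lane 8, controls 1 and 2 name lane 7, and controls 3 and 4 name none, so lane and group cannot be told apart.

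DDR1 itself was at 159, 343, 427 and 809.9 CPM (read counts relative to library size, scaled by the trimmed mean of M-values, TMM) in DDR1 1 to 4, against 138, 109.8, 210.4 and 149 CPM in controls 1 to 4. The library labelled DDR1 1 lies inside the control range, which goes against its label, so each difference of the 10 genes, and the count and median of each gene list, is also given without it. The log2 fold change of DDR1 (DDR1 over control) was 1.52 (SE 0.43, edgeR unadjusted p = 0.00612), and an exact two-sided permutation test gave p = 0.0571, where 0.0286 is the smallest that 70 orderings allow. Without the library labelled DDR1 1 the log2 fold change was 1.79. Library totals ran from 20789503 to 32271031 estimated counts in the DDR1 group and from 13716286 to 22736674 in the control group.

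The 10 genes serve different steps of a leukocyte's work. LCP1 (plastin-2) bundles actin filaments, and CYFIP2 is a subunit of the WAVE complex, which starts actin branching. CD74 is the invariant chain that escorts MHC class II molecules, cathepsin S (CTSS) trims it inside endosomes, and CD83 marks mature dendritic cells and keeps class II molecules at the surface. LCK is the kinase that starts T cell receptor signalling, and PTPN7 is a phosphatase that switches off MAP kinases. LAPTM5 and CD68 are membrane proteins of lysosomes, and LTB (lymphotoxin beta) is a ligand of the tumour necrosis factor family. Several of them are also transcribed by carcinoma cells, LCP1 being a familiar case.

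Reads counted to human genes were many for markers of an epithelial tumour and few for most genes that define leukocytes. Leukocytes of the host would be mouse cells, and how mouse reads were treated is not given. These counts therefore set no limit on host leukocyte RNA. The 7 carcinoma markers (KRT8, KRT18, KRT7, KRT19, KRT5, EPCAM and CDH1) summed to 2720.4 to 6572 CPM in DDR1 libraries and 2118 to 4539 CPM in control libraries. PTPRC, which encodes the pan-leukocyte protein CD45, was at 0 to 0.0809 CPM in DDR1 libraries and at 0 to 0.167 CPM in control libraries. Its highest raw count was 4, and a count of 0 allows a level of up to 3 counts, or 0.093 to 0.219 CPM depending on the library; such limits cover counting error only. C1QA, FLT3 and the red cell gene HBB were at 0 in all 8. Of 62 genes in 7 leukocyte lists, 53 averaged under 1 CPM, and those lists held 16 genes with enough counts to test, of which 0 were called. Of the 16, 11 were lower and 5 higher in DDR1 tumours with a median log2 fold change of -0.35, and 14 of 19 were lower with a median of -0.60 without the library labelled DDR1 1. All 5 tested genes of the pan-leukocyte list were among the lower ones (median -0.84), or 6 of 6 (median -0.96) without that library. MSR1, a scavenger receptor of macrophages singled out after its values were seen, was at 0.0575, 0.411, 0.486 and 0.05 CPM in DDR1 libraries and at 0.942, 0.752, 0.56 and 2.21 CPM in control libraries. Every DDR1 library lay below every control, which held for 1.13% of all tested genes. Its values rest on 1 to 29 counts, with 2 in DDR1 1 and 1 in DDR1 4, so the ratio is imprecise. The log2 fold change was -2.08 (SE 0.73, edgeR unadjusted p = 0.0174), or -1.73 without the library labelled DDR1 1. Of the 16 tested genes, 1 was lower and 0 higher at an unadjusted p under 0.05, where 2.24% of all genes were lower. The part of such leukocyte RNA in the differences of the 10 genes was not tested.

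Some markers of endothelial cells, fibroblasts and muscle differed widely between libraries of the same group, and others stayed under 1 CPM. CDH5, of endothelial cells, was at 2.82, 28, 20.8 and 51.1 CPM in DDR1 libraries and at 2.6, 19.3, 1.64 and 41.5 CPM in control libraries. COL3A1, of fibroblasts, was at 0.0287, 26.8, 18.1 and 2.2 CPM in DDR1 libraries and at 26.4, 5.35, 0.0861 and 3.28 CPM in control libraries. MYH1, of skeletal muscle, reached 5.7 CPM in the DDR1 group and 36.5 CPM in the control group, both in the fourth library. Over the whole lists the sums were 9.34 to 76.6 CPM in DDR1 and 8.78 to 57.8 CPM in control libraries for 8 endothelial genes, 4.08 to 54.8 against 10.1 to 67.3 CPM for 8 fibroblast genes, and 0.445 to 9.1 against 0.732 to 59.6 CPM for 5 muscle genes. Of these, 5 of the 8 endothelial, 3 of the 8 fibroblast and 3 of the 5 muscle genes averaged under 1 CPM. KDR, of endothelial cells, was at 0 to 0.283 CPM in DDR1 and 0.0431 to 0.292 CPM in control libraries. COL1A2, of fibroblasts, was at 0 to 0.728 CPM in DDR1 and 0 to 0.961 CPM in control libraries. Whether tumour or host cells gave these reads was not tested. In the pan-leukocyte list 5 of 14 genes could be tested, and the list summed to 32.6 to 58.3 CPM in DDR1 libraries and 43.7 to 99.8 CPM in control libraries, of which HCLS1 made up 49.4% to 84.3% in DDR1 and 47.5% to 77.9% in control libraries. Reads were mapped to a human build, and how mouse reads were treated is not given in the sources used here. The part of host reads in the levels below was not tested, and in bulk tumours fewer cells of a type and less RNA per cell cannot be told apart.

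**Figure D1:**
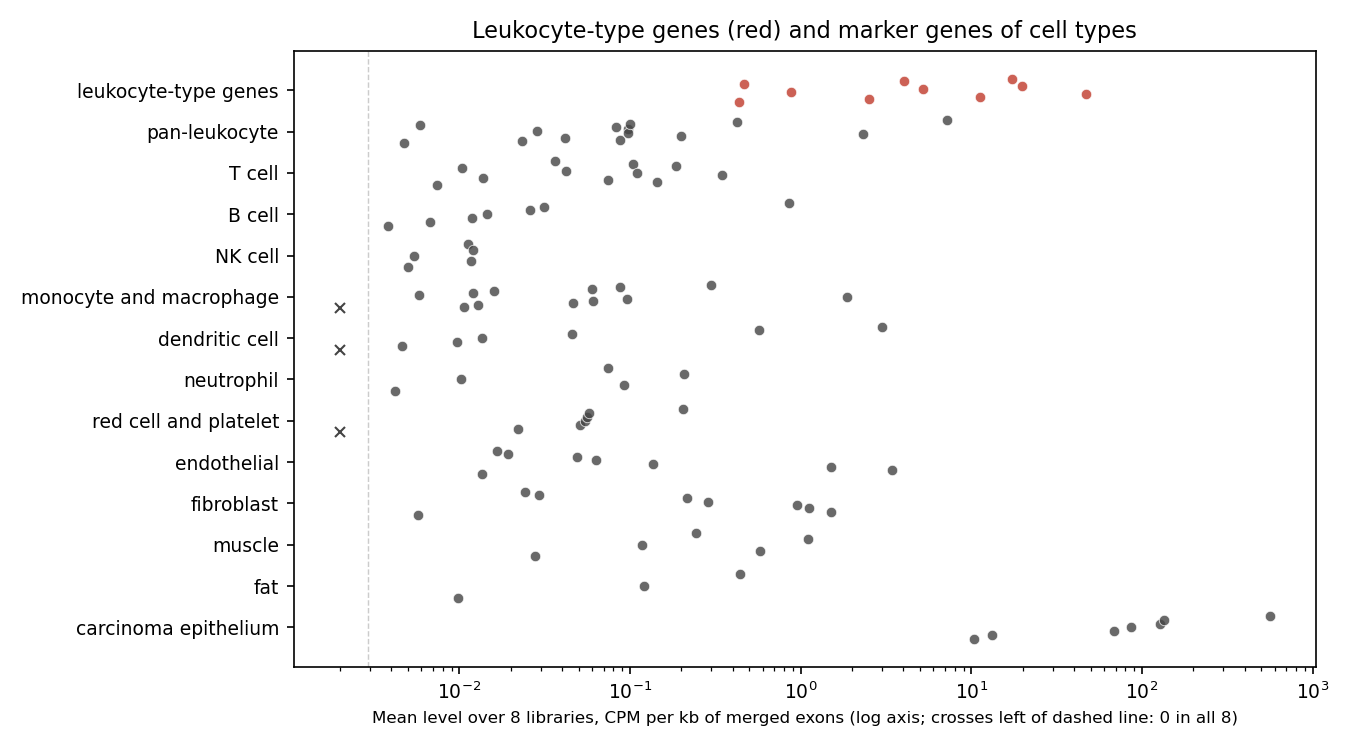
Mean level over the 8 libraries (CPM per kb of merged exons, log axis) of the 10 leukocyte-type genes in red and of each marker gene in grey, by cell type list; crosses are genes at 0 in all 8 libraries. LAPTM5 averaged 46.9 CPM per kb, whereas HCLS1, the highest marker of the leukocyte lists, averaged 7.23 CPM per kb and carcinoma KRT5 559 CPM per kb.

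Per kb of merged exons, which lets genes be compared, LAPTM5 was highest of the 10 at 46.9 ± 19.6 CPM per kb (SD, n = 8 libraries), more than 96.7% of all tested genes. LCP1 followed at 19.8 ± 11.7, CD74 at 17.2 ± 7.16, CD68 at 11.2 ± 5.74 and CD83 at 5.18 ± 3.39 CPM per kb. Then came CTSS at 4.02 ± 2.76, LCK at 2.51 ± 2.05, CYFIP2 at 0.872 ± 0.585, LTB at 0.463 ± 0.227 and PTPN7 at 0.433 ± 0.546 CPM per kb. The first 4 of the genes thus lay above at least 82.1% of all tested genes, but the ranges over libraries overlapped for all 9 pairs of neighbours in this order. LAPTM5 exceeded LCP1 in 7 of 8 libraries, and LCP1 exceeded CD74 in 4 of 8.

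**Figure D2:**
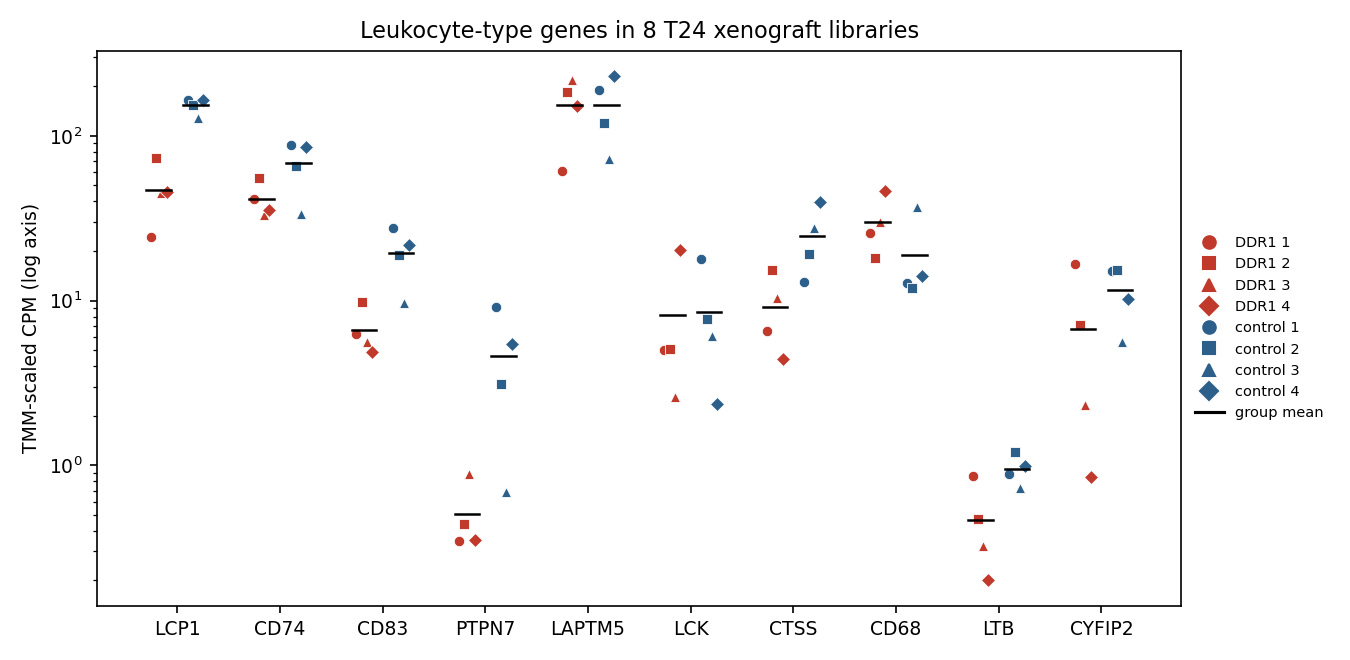
TMM-scaled CPM (log axis) of the 10 leukocyte-type genes in each library, DDR1 in red left of control in blue, with a bar at the group mean. LCP1 is the gene whose DDR1 points (24.3 to 73.9 CPM) all lie below its control points (128 to 165 CPM).

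The promoters of these genes were read for 4 letter patterns. The ETS core AGGAAGT and the kappaB consensus, both searched on both strands, are bound by factors that are active in blood cells. The general promoter patterns CCAAT and TATA were read as well. The windows are the 250 bases before each RefSeq gene start (GRCh38.p14), and 9 of the 10 genes have one. AGGAAGT occurred in a window of 5 of the 9 genes (LCP1, CD83, LAPTM5, LCK and CD68), and in 8.47% of all 27305 genes with a window. The kappaB consensus occurred in 5 of 9 (CD74, CD83, PTPN7, LCK and LTB), and in 11.8% of all genes. Per window the shares were 7.01% and 9.96% of 35116. CCAAT occurred in 2 of 9 genes (CD74 and PTPN7), and in 37% of all genes. TATA occurred in 2 of 9 (LCP1 and CD83), and in 13% of all genes. The stretches below are 30 bases each in the direction of the gene, with the matched letters in capitals (ACTTCCT is AGGAAGT read on the other strand). They are a part of the matches of these 2 patterns. Left out are the ETS match of CD83, another ETS match of LCK, and a kappaB match each of CD83 and LCK. Whether a match goes with a gene's level was not tested. The first 5 hold the ETS core and the last 5 the kappaB consensus.
LCP1 (chr13:46182352-46182381, minus strand): aaaaaaaaaaagAGGAAGTggtaggaggtg
LCP1 (chr13:46182206-46182235, minus strand): gtcattctagtcACTTCCTgccttgtgacc
LAPTM5 (chr1:30757828-30757857, minus strand): taaggggcaggaAGGAAGTgaggagggcag
CD68 (chr17:7579560-7579589, plus strand): catctccagtacAGGAAGTgagactttcat
LCK (chr1:32274013-32274042, plus strand): gggggcagaggcAGGAAGTgggtaactaga
CD83 (chr6:14117687-14117716, plus strand): ctgcccgccGGGGAATCCCCCgggctggcg
CD83 (chr6:14117711-14117740, plus strand): ctggcgcgcaGGGAAGTTCCCgaacgcgcg
LTB (chr6:31582492-31582521, minus strand): aggggtgtgcGGAAAGTCCCagccaggtgt
CD74 (chr5:150412911-150412940, minus strand): ctacctgcctGGGGAGCCCCCCcgccccac
PTPN7 (chr1:202159498-202159527, minus strand): ggcctggcatGGGAGCCTCCttctggccaa
In LCP1 the capitals begin 192 and 46 bases before the start, in LAPTM5 71, in CD68 66, and in LCK 96 bases before it. In CD83 they begin 76 and 51 bases before the start, in LTB 86, in CD74 20 and in PTPN7 63. Both CD83 stretches, the second LCP1 stretch and those of CD68, CD74 and PTPN7 overlap untranslated exon sequence annotated in GENCODE 29, and the LTB stretch overlaps an annotated exon. A match is a description of letters, not a bound site.

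Of the 10 genes, 8 had a lower mean level in DDR1 than in control tumours, beside 50.5% of all 18973 tested genes. No gene passed the test: edgeR's quasi-likelihood test with Benjamini-Hochberg adjustment over all tested genes called 0%, 0 of the 10 genes among them, and gave each of the 10 an adjusted p of 0.9998. At an unadjusted p under 0.05, 6 of the 10 were lower in DDR1 tumours and 0 higher, where 4.17% of all genes had such a p and 2.24% were lower. PTPN7 and LTB are among those 6, and each reached the filter's level of 0.443 CPM in 2 DDR1 and 4 control libraries. DESeq2, which called 0.0899% of 17806 genes and 0.0449% as lower, called LCP1, CD83 and PTPN7, all lower. The median log2 fold change (DDR1 over control) over the 10 was -0.89, against -0.0030 over all tested genes, and without the library labelled DDR1 1, 7 of the 10 were lower with a median of -1.39. Since the genes were chosen with such results known, nothing is read from these shares.

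Among the cytoskeletal genes, LCP1 had 24.3, 73.9, 44.8 and 45.6 CPM in DDR1 1 to 4, against 165, 155, 128 and 164 CPM in controls 1 to 4. Every DDR1 library lay below every control library, which held for 1.13% of tested genes (the opposite held for 1.27% of genes and 0 of the 10), and LCP1 is the one gene of the 10 for which the groups did not overlap. The mean was 47.1 ± 20.4 CPM in DDR1 and 153 ± 17.2 CPM in control tumours (SD, n = 4 each), 3.24-fold lower in DDR1. DESeq2 gave LCP1 an adjusted p of 0.000494, but the gene was chosen in part by such a call, so this value adds no support. Its log2 fold change was -1.70 (SE 0.30, edgeR unadjusted p = 0.000226, adjusted p = 0.9998). Without the library labelled DDR1 1 the log2 fold change was -1.48, and it stayed between -2.0 and -1.48 under all 20 alternatives. LCP1 (ENSG00000136167) lies at chr13:46125920-46211871 on the minus strand (GRCh38, GENCODE 29) and rests on 845 to 3704 counts per library.

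LCP1 has paralogs outside the blood, PLS3, the plastin of solid tissues, and PLS1 of epithelial brush borders. Per kb, LCP1 stood at 5.75% to 12.3% of PLS3 in DDR1 libraries and at 25.9% to 40.4% of it in control libraries. PLS3 itself did not pass the test and had a log2 fold change of 0.28 (SE 0.22), or 0.41 without the library labelled DDR1 1. Against PLS1, LCP1 was at 82.2% to 333% in DDR1 libraries and at 547% to 1161% in control libraries. PLS3 thus remained the more abundant plastin transcript in every library. LCP1 exceeded PLS1 in all 4 control libraries and in every DDR1 library but DDR1 1 (4.8 against 5.84 CPM per kb).

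CYFIP2 had 16.6, 7.12, 2.31 and 0.85 CPM in DDR1 libraries, against 15.2, 15.4, 5.6 and 10.2 CPM in control libraries. The library labelled DDR1 1 was the highest of all 8, and the other DDR1 libraries spread down to 17 counts. Its log2 fold change of -0.78 (SE 0.74, edgeR unadjusted p = 0.319) became -1.75 without that library, -0.51 without DDR1 3 and -0.42 without DDR1 4. It was -0.20 without the lane 7 controls and -1.18 without the no-lane controls. Its paralog CYFIP1, the form used in most tissues, was far more abundant: CYFIP2 stood at 0.532% to 18.1% of it per kb in DDR1 and at 5.79% to 11.4% in control libraries. CYFIP2 (ENSG00000055163, chr5:157266079-157395595, plus strand) shares its locus with ADAM19 on the other strand, which averaged 55.0 CPM. The counting is not stated to use strand, so reads where they overlap cannot be assigned with certainty.

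**Figure D3:**
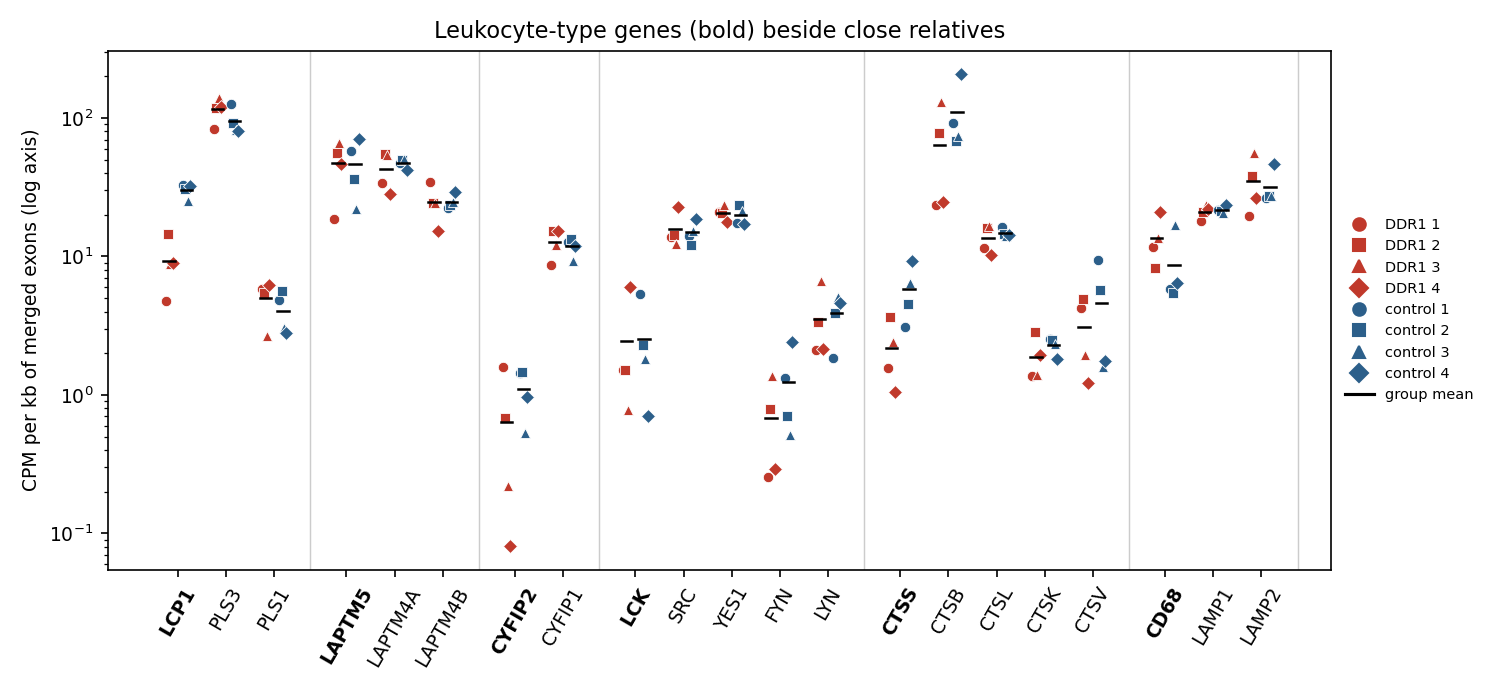
CPM per kb of merged exons (log axis) in each library for 6 leukocyte-type genes (bold) and close relatives, DDR1 in red left of control in blue, with a bar at the group mean. LAPTM5 reaches the level of LAPTM4A, whereas LCP1 stays below PLS3, CYFIP2 below CYFIP1 and CTSS below CTSB in every library.

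Among the antigen presentation genes, CD74 had 41.2, 55.4, 33.2 and 35.6 CPM in DDR1 libraries, against 88.5, 65.8, 33.7 and 85.0 CPM in control libraries. Controls 1, 2 and 4 lay above every DDR1 library, and control 3 lay among them. The mean was 41.3 ± 9.95 CPM in DDR1 and 68.2 ± 25.1 CPM in control tumours (SD, n = 4 each), a log2 fold change of -0.72 (SE 0.30, edgeR unadjusted p = 0.0377). Without the library labelled DDR1 1 it was also -0.72. CD74 (ENSG00000019582) lies at chr5:150401637-150412929 on the minus strand and had 712 to 1751 counts.

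CD83 had 6.29, 9.77, 5.58 and 4.85 CPM in DDR1 libraries, against 27.5, 19.0, 9.64 and 21.6 CPM in control libraries. The groups overlapped only because control 3 lay just under DDR1 2. Its mean of 6.63 ± 2.18 CPM in DDR1 tumours was 2.92-fold lower than 19.4 ± 7.44 CPM in control tumours (SD, n = 4 each), with a log2 fold change of -1.55 (SE 0.35). The 7 dendritic cell markers summed to 14.2 to 29 CPM in DDR1 and 14.7 to 24.6 CPM in control libraries, most of it ZBTB46, and FLT3 was at 0. The edgeR unadjusted p of CD83 was 0.00134 and the DESeq2 adjusted p 0.0337. CD83 was chosen in part by such a DESeq2 call, so the latter adds no support. Without the library labelled DDR1 1 the log2 fold change was -1.52. CD83 (ENSG00000112149) lies at chr6:14117256-14136918 on the plus strand and had 97 to 497 counts.

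CTSS had 6.58, 15.4, 10.3 and 4.45 CPM in DDR1 libraries, against 13.0, 19.2, 27.4 and 39.5 CPM in control libraries. Controls 2, 3 and 4 exceeded all DDR1 libraries, and control 1 lay below DDR1 2. The log2 fold change was -1.43 (SE 0.44, edgeR unadjusted p = 0.00916, DESeq2 adjusted p = 0.309). It was -1.29 without the library labelled DDR1 1 and -0.81 when the no-lane controls 3 and 4 were left out, so these libraries carry much of its size. Per kb it stood at 1.85% to 6.57% of CTSB, a cathepsin of most tissues, in DDR1 and 3.35% to 8.7% in control libraries, and at 10.3% to 22.8% of CTSL in DDR1 and 18.9% to 65.4% in control libraries. It was closer to CTSK, the cathepsin of osteoclasts, at 54.4% to 174% in DDR1 and 121% to 515% in control libraries, and to CTSV, at 36.8% to 125% in DDR1 and 32.7% to 534% in control libraries. CTSS (ENSG00000163131) lies at chr1:150730196-150765957 on the minus strand and had 89 to 636 counts.

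Transcripts of most class II molecules, which CD74 escorts, were scarce. Of 16 genes in the MHC class II list, 9 averaged under 1 CPM, and HLA-DRB5, HLA-DQA1 and HLA-DQB1 were at 0 in all 8 libraries. Enough counts to test were found for 9 of the 16. At an edgeR unadjusted p under 0.05, 3 of these 9, CD74 among them, were lower in DDR1 tumours and 0 higher. Over all genes 2.24% were lower at such a p, and the list was chosen with earlier results known. Of those 9, 7 were lower and 2 higher in DDR1 tumours, 0 passed, and the median log2 fold change was -0.27 with CD74 included; the counts were the same, and the median -0.29, without the library labelled DDR1 1. HLA-DPA1 had the lowest at -0.88 (SE 0.29), with 4.57 to 6.96 CPM in DDR1 and 5.77 to 12.8 CPM in control libraries. HLA-DPB1 was not scarce, at 6.92 to 11 CPM in DDR1 and 10.1 to 16.6 CPM in control libraries. Its 4.07 CPM per kb was close to the 4.02 of CTSS, and its log2 fold change was -0.55 (SE 0.24). HLA-DMA, which loads peptides, and RFXAP, a factor of class II promoters, had the highest at 0.56 and 0.11. CIITA, the master activator of class II genes, was at 2.9 to 3.6 CPM in DDR1 and 2.94 to 3.51 CPM in control libraries. Reads of HLA genes can be split between near-identical copies, so their counts are uncertain. CD74 at 17.2 CPM per kb was thus the most abundant transcript of its list. Of 13 cathepsin genes tested, 10 were lower and 3 higher, 0 passed, and the median was -0.29; 8 were lower, with a median of -0.06, without the library labelled DDR1 1. CTSE, an aspartic protease, followed CTSS at -0.95, and CTSH and CTSF were highest at 0.52 and 0.30.

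Among the signalling genes, PTPN7 had 0.345, 0.443, 0.89 and 0.35 CPM in DDR1 libraries, against 9.14, 3.13, 0.689 and 5.48 CPM in control libraries. Controls 1, 2 and 4 stood far above the rest, and control 3 lay below DDR1 3. Mean levels were 0.507 ± 0.259 CPM in DDR1 and 4.61 ± 3.6 CPM in control tumours (SD, n = 4 each), 9.01-fold lower in DDR1 in the fit. DESeq2 gave PTPN7 an adjusted p of 0.00826, but the gene was chosen in part by such a call, so this value adds no support. The log2 fold change was -3.17 (SE 0.71, edgeR unadjusted p = 0.0014), and -3.02 without the library labelled DDR1 1. It rests on 7 to 22 counts in DDR1 and 16 to 165 in control libraries, and the filter's level of 0.443 CPM was passed in 2 DDR1 and 4 control libraries. The leukocyte signalling gene DOCK2 was also uneven, at 0.0575, 3.64, 1.29 and 0.3 CPM in DDR1 libraries and 4.54, 5.14, 0.0431 and 6.17 CPM in control libraries. Both were lowest among controls in control 3, and whether they share a source was not tested. PTPN7 (ENSG00000143851) lies at chr1:202147013-202161588 on the minus strand.

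LCK had 5.03, 5.06, 2.59 and 20.2 CPM in DDR1 libraries, against 17.9, 7.73, 6.07 and 2.36 CPM in control libraries. One library of each group, DDR1 4 and control 1, stood above the other 6, and the group means of 8.22 and 8.53 CPM were close. The log2 fold change was -0.06 (SE 0.71, edgeR unadjusted p = 0.934), and its sign turned with single libraries: it was 0.12 without the library labelled DDR1 1, -1.01 without DDR1 4 and 0.61 without control 1. Per kb, LCK stood at 6.23% to 26.5% of the broadly expressed kinase SRC in DDR1 and at 3.81% to 38.3% in control libraries. Against its relative YES1 it stood at 3.31% to 34% in DDR1 and 4.13% to 30.9% in control libraries. It was closer to LYN, at 11.7% to 283% in DDR1 and 15.3% to 289.9% in control libraries. Against FYN it stood at 56.8% to 2085% in DDR1 and 29.4% to 409% in control libraries. The 11 T cell markers summed to 1.8 to 4.81 CPM in DDR1 and 2.51 to 6.52 CPM in control libraries, and 8 of 15 genes of T cell receptor signalling averaged under 1 CPM. Of the 7 tested, 5 were lower and 2 higher, 0 passed, and the median was -0.06, with FYN, a Src family kinase, at -0.86 and the broadly used CSK and PLCG1 highest at 0.20 and 0.12. Without the library labelled DDR1 1, 5 of 8 were lower with a median of -0.22. Of 6 Src family kinases tested, 4 were lower and 2 higher, 0 passed and the median was -0.09, whereas 2 were lower and 4 higher, with a median of 0.06, without that library. LCK (ENSG00000182866) lies at chr1:32251239-32286165 on the plus strand.

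Of the genes for lysosomal membrane proteins, LAPTM5 had 61.2, 184, 218 and 152 CPM in DDR1 libraries, against 189.9, 119, 72.4 and 231 CPM in control libraries. The groups covered nearly the same range, with means of 154 ± 67.3 CPM in DDR1 and 153 ± 71.2 CPM in control tumours (SD, n = 4 each). The log2 fold change was 0.01 (SE 0.43, edgeR unadjusted p = 0.987) and 0.27 without the library labelled DDR1 1, which was the lowest of the 8; its sign turned under 8 of 20 alternatives. Its paralogs are expressed in most tissues, and per kb LAPTM5 stood at 55.2% to 164% of LAPTM4A in DDR1 libraries and at 43.4% to 167% in control libraries. RNA of a gene usually kept to blood cells was thus present at the level of its broadly expressed relative, with 1681 to 5829 counts per library. LAPTM5 (ENSG00000162511) lies at chr1:30732469-30757820 on the minus strand.

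CD68 had 25.8, 18.1, 29.8 and 46.3 CPM in DDR1 libraries, against 12.8, 11.9, 37.0 and 14.2 CPM in control libraries. Every DDR1 library exceeded controls 1, 2 and 4, and control 3 exceeded all but DDR1 4. The log2 fold change was 0.66 (SE 0.42, edgeR unadjusted p = 0.147), 0.72 without the library labelled DDR1 1, 1.21 without control 3, 0.39 without DDR1 4, 0.26 without the lane 7 controls and 1.28 without the no-lane controls. CD68 is a macrophage marker in pathology, and which cells its reads came from was not tested. In the monocyte and macrophage list 11 of the 13 genes averaged under 1 CPM, with reads mapped to a human build. The list summed to 3.1 to 7.94 CPM in DDR1 and 3.44 to 9.97 CPM in control libraries. In that list CSF1R was at 0.253 to 0.607 CPM in DDR1 and 0.251 to 0.775 CPM in control libraries, and C1QA was at 0 in all 8. Per kb, CD68 stood at 39.4% to 95.9% of LAMP1, a lysosomal membrane protein of all cells, in DDR1 libraries and at 25.6% to 82.6% in control libraries. Its locus (ENSG00000129226, chr17:7579467-7582113, plus strand) overlaps AC016876.2 on the same strand, at 9.42 CPM, and AC016876.1 on the other, at 1.07 CPM, so its count is uncertain. Of 11 lysosomal membrane genes tested, 7 were lower and 4 higher, 0 passed, and the median was -0.03, with LAMP3 lowest at -0.45; without the library labelled DDR1 1, 4 were lower and 7 higher with a median of 0.01.

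The ligand gene LTB had few reads, with 0.862, 0.474, 0.324 and 0.2 CPM in DDR1 libraries and 0.886, 1.21, 0.732 and 0.99 CPM in control libraries. DDR1 2, 3 and 4 lay below every control, and the library labelled DDR1 1 lay among the controls. These values rest on 4 to 30 counts, and the log2 fold change was -0.99 (SE 0.44, edgeR unadjusted p = 0.0498), or -1.48 without that library. As for PTPN7, the filter's level of 0.443 CPM was passed in 2 DDR1 and 4 control libraries. LTB (ENSG00000227507) lies at chr6:31580525-31582522 on the minus strand. In the lymphotoxin and TNF list, 5 of 13 tested genes, LTB among them, were lower at an edgeR unadjusted p under 0.05 and 0 higher. Over all genes 2.24% were lower at such a p. The list was chosen with earlier results known, so these shares are descriptions. Of the 13 genes, 9 were lower and 4 higher in DDR1 tumours, 0 passed, and the median log2 fold change was -0.51. It was -0.35, with 10 lower, without the library labelled DDR1 1. BIRC3, an inhibitor of apoptosis, had the lowest at -1.41 (SE 0.44), with 7.5 to 18.8 CPM in DDR1 and 11.8 to 49.2 CPM in control libraries. TNF was next at -1.31 (SE 0.48), with 2.69 to 8.42 CPM in DDR1 and 7.06 to 21.2 CPM in control libraries. TNFRSF1A, a receptor of TNF, and the kinase MAP3K14 were highest at 0.22 and 0.21.

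**Figure D4:**
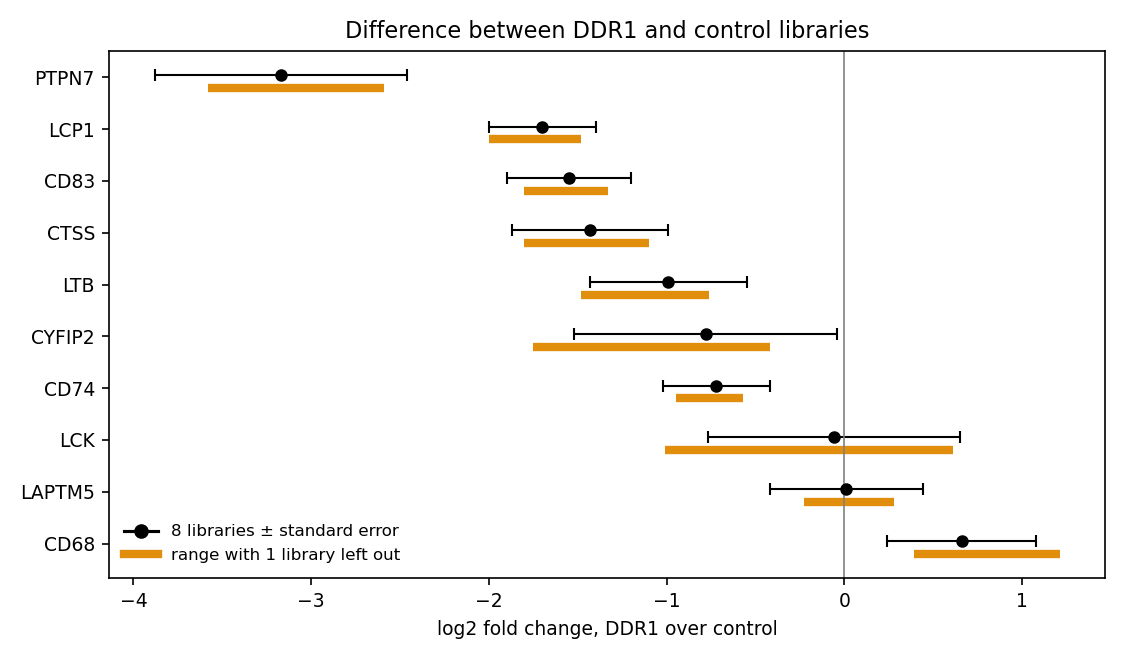
Log2 fold change (DDR1 over control) of each of the 10 genes with its standard error in black, and the range obtained by leaving out 1 library at a time in orange. PTPN7 (-3.17), LCP1 (-1.70), CD83 (-1.55) and CTSS (-1.43) stay below 0 throughout, and the ranges of LCK and LAPTM5 span 0.

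The remaining lists around these genes were split. Of 8 actin bundling genes tested, 4 were lower and 4 higher, with LCP1 lowest, FLNA, a filamin, at -0.29, and PLS1 at 0.31. Of 10 WAVE complex genes, 4 were lower and 6 higher, with ABI2 at -0.21, ABI1 at 0.35 and ABI3 at 0.95. Of 9 MAP kinase phosphatases and targets, 3 were lower and 6 higher, with PTPN7 lowest, DUSP6 at -0.11, DUSP4 at 0.46 and PTPRR at 0.62. In each of these lists 0 genes passed, and the medians were 0.08, 0.08 and 0.28. Of 17 close relatives tested, 10 were lower and 7 higher, 0 passed, and the median was -0.04. When the library labelled DDR1 1 was left out, 3 of the 8 actin bundling genes, 4 of the 10 WAVE complex genes, 5 of the 9 phosphatases and targets and 9 of the 17 relatives were lower, with medians of 0.14, 0.15, -0.03 and -0.05. PTPRR turned to -1.24 without it.

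Within groups, the 10 genes did not move as one. After each group's mean was subtracted from log2 CPM, Pearson's r over the 8 libraries had a median of 0.08 over the 45 pairs, and 27 pairs were positive. CD74 and CD83 were closest at 0.97, followed by LTB and CYFIP2 at 0.96. CD68 ran opposite to CD83, at -0.92. These values are descriptions over 8 libraries that share depth, lane and title prefix in part. Among 11877 genes of at least 5 CPM, the most alike to LCP1 were TMEM154 (0.99), CEMIP (0.97) and AP3S2 (0.95). Those most alike to LAPTM5 were CD59 (0.99), ARAP3 (0.99) and CHIC2 (0.98). CD74 was most like CD83, TMEM59 (0.97) and LEPR (0.96), and CD83 most like ICMT, TRAPPC11 and CD74 (0.97 each). The genes nearest to LCP1 and LAPTM5 thus did not include another of the 10, whereas CD74 and CD83 were among each other's nearest.

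**Figure D5:**
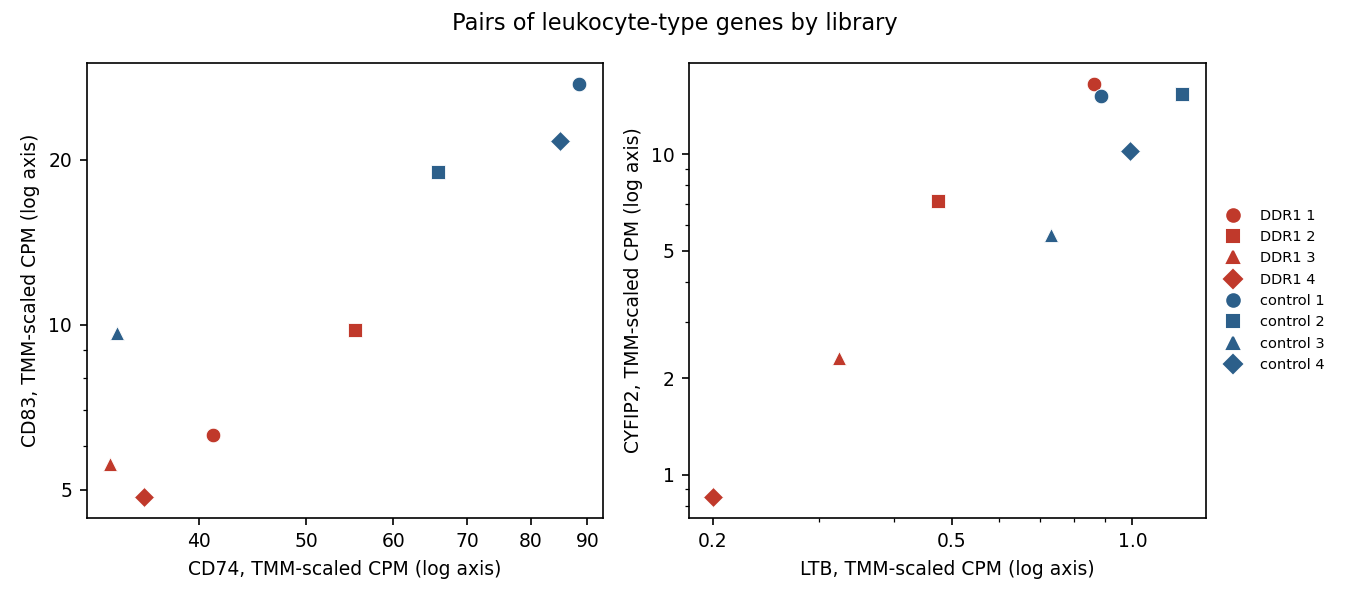
TMM-scaled CPM (log axes) of CD83 against CD74 and of CYFIP2 against LTB, 1 point per library, DDR1 in red and control in blue. The library highest in CD74 is also highest in CD83 in each group (DDR1 2 and control 1), and control 3 (33.7 CPM CD74, 9.64 CPM CD83) lies next to the DDR1 points.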

How the data were processed

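Per the labels, RNA of whole tumours was selected with poly-T beads and sequenced as paired-end reads. The submitters' processing notes name FastQC 0.11.9, Trim Galore 0.6.4, STAR 2.7.5, RSEM 1.3.1 and build GRCh38; the annotation release, strand setting and handling of mouse reads were not given in the sources used here. The authors deposited expected counts per gene (26.5% of nonzero values were not whole), which were rounded to whole numbers, and a table of log2 values of TMM-normalised expression for 22480 genes, used only as an alternative; it is already on the log2 scale, so no 1 was added. Gene names, coordinates and merged exon lengths came from GENCODE 29, which matched 58039 of 58302 IDs.

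The test was edgeR 4.0.16's quasi-likelihood test (R 4.3.3, filterByExpr with a minimum count of 10, TMM scaling, no covariates) on all 8 libraries, with Benjamini-Hochberg adjustment over 18973 genes and a threshold of 0.05. It was tested on simulated data. All 10 genes passed the filter. CPM in the text is TMM-scaled, and 2 was the prior count of log2 CPM. Replicate numbers follow accession order and pair nothing. No libraries were duplicates: the counts of the most alike pair differed by a chi-square of 32.2 per degree of freedom. The alternatives were RLE or upper-quartile scaling, no filter, 5 CPM in 4 libraries, DESeq2 1.42.0, limma 3.58.1 (voom, and trend on the deposited log2 values), each library left out, the lane 7 or the no-lane controls left out, libraries of a shared prefix summed, DDR1 and mitochondrial genes left out of library sizes, and protein-coding genes only. The 10 genes and all lists were chosen with earlier results of these data known. Named genes are the 10, DDR1, their close relatives, the leading and defining markers of each cell type list, the 2 lowest and 2 highest log2 fold changes of each pathway list, and the 3 genes most alike to LCP1, CD83, CD74 and LAPTM5. A gene that this rule names is not reported here. The genes HLA-DRB5, HLA-DQA1, HLA-DQB1, HLA-DPB1, CIITA, DOCK2 and MSR1 were named after their values were seen.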

Additional observations from a re-analysis of the deposited data

Results flagged for a closer look

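Of 22 groups of 4 libraries examined, 2 held a library far from the other 3. Chance gives about 1 group in 20 if values follow a normal distribution, which was not checked here. The gaps were taken on CPM, not on log2 CPM. LCK in DDR1 4 was at 20.2 CPM, whereas the other DDR1 libraries were at 2.59 to 5.06 CPM. The gap made up 0.86 of the group's range. CD68 in control 3 was at 37 CPM, whereas the other control libraries were at 11.9 to 14.2 CPM, a gap of 0.91 of the range.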

How the results depend on the processing

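Calls depended on the tool: DESeq2 called 16 genes, 3 of them among the 10, where edgeR called 0 (791 at an unadjusted p under 0.05), and 0 were called under the other 19 alternatives. Those 3 were chosen in part by earlier DESeq2 calls on the same libraries. DDR1's own log2 fold change of 1.52 was 1.31 without the lane 7 controls (unadjusted p = 0.06526) and 1.05 to 1.79 with 1 library left out. The number of the 10 genes lower in DDR1 tumours was 6 to 9 over all alternatives, and 7 to 9 with 1 library left out. The 6 came from the 5 CPM filter, under which only 8 of the 10 were tested. LAPTM5 turned to -0.0033 with upper-quartile scaling, -0.0004 with limma-voom, -0.0042 without the no-lane controls and -0.24 with shared prefixes summed, and ran from -0.23 to 0.28 with 1 library left out. LCK turned to 0.99 without the lane 7 controls and ran from -1.01 to 0.61 with 1 library left out. The cause of these shifts was not tested. LCP1, CD74, CD83, PTPN7, CTSS, LTB and CYFIP2 stayed below 0 and CD68 above 0 under every alternative that gave a value; PTPN7 and LTB had none under the 5 CPM filter. PTPN7 and LTB rest on as few as 7 and 4 counts, so their ratios are imprecise. No paired analysis was possible because M2 is the only number that titles of both groups share, and it stands in 3 control titles.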

Other observations

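Among the 62 genes of the leukocyte lists, 9 averaged at least 1 CPM, and some of these were as abundant as the lower ones of the 10 genes described. The highest per kb, HCLS1 at 7.23 CPM per kb, lay between CD68 at 11.2 and CD83 at 5.18 CPM per kb. HCLS1, an actin regulator of blood cells, was at 25.2, 40.5, 49.1 and 24.8 CPM in DDR1 libraries and at 26.3, 30.2, 20.8 and 77.7 CPM in control libraries. CORO1A, a coronin of leukocytes, was at 23.1, 9.65, 4.61 and 6.2 CPM in DDR1 libraries and at 10.8, 9.19, 18.6 and 7.92 CPM in control libraries. ZBTB46, a factor of dendritic cells, was at 12.7 to 27.0 CPM in DDR1 and 13.2 to 20.3 CPM in control libraries. PAX5, a B cell factor, was at 5.85 to 11.5 CPM in DDR1 and 3.93 to 9.21 CPM in control libraries. For each of these genes the groups overlapped. Without HCLS1 and CORO1A, a choice made after their values were seen, the other 12 pan-leukocyte genes summed to 1.6 to 8.16 CPM in DDR1 and 4.35 to 14.2 CPM in control libraries.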
